A study of Homo sapiens with 6 samples.

Results

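The genes described here were 53 androgen-responsive genes that are not kallikreins, chosen by name from a list of genes known to follow androgen signaling, with FKBP5 and TMPRSS2 among them. Of the 53, 52 had a row in the deposited table of log2 CPM (read counts scaled to the size of the library, on a log2 scale), which holds 17901 genes. ALDH1A3, a retinaldehyde dehydrogenase, was the exception, with 4, 5 and 7 raw counts in the siCtrl libraries and 5, 2 and 6 in the siMED12 libraries, and it was not tested. The data were 6 RNA-seq libraries of 22Rv1, an androgen-responsive human prostate cancer cell line. The 3 siCtrl libraries came from cells transfected with 25 pmol of a non-targeting pool of siRNAs, and the 3 siMED12 libraries from cells given the same amount of a pool against MED12. All cells were seeded 24 h before transfection in medium with 10% fetal bovine serum, had their medium changed 6 h after it, and were harvested on day 3. The labels name no added androgen and no inhibitor of androgen signaling, so every level below was measured in serum-containing medium without added hormone. All libraries came from 1 cell line and 1 siRNA pool per group, and although the study's methods speak in general terms of at least 3 biological replicates, the labels do not tie the 3 libraries of a group to separate cultures, so p-values measure the spread between these libraries.

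Androgen signaling acts on its target genes mostly through distal enhancers. From there the signal reaches RNA polymerase II through coactivators and the Mediator complex. MED12 is a subunit of the kinase module of Mediator, which also holds CDK8 or CDK19 and cyclin C. Genes that follow androgen in prostate cells are not of one kind. They encode secreted proteins and proteases, enzymes of lipid and sugar metabolism, ion and metabolite transporters, proteins of the secretory pathway, signaling proteins, and regulators that feed back on the pathway itself. The comparison of siMED12 with siCtrl addresses whether the levels of these genes differ when MED12 is depleted. The labels name no group with androgen added or withdrawn, so the response to androgen itself was not measured.

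MED12 itself, an X-linked gene on the plus strand (71118543 to 71144103 in GRCh38), stood at 67.8, 77.7 and 72.6 CPM in the siCtrl libraries and at 23.9, 14.97 and 30.1 CPM in the siMED12 libraries, numbered 1 to 3. Every siMED12 library was below every siCtrl library. The mean fell from 72.7 ± 4.99 to 22.99 ± 7.61 CPM (SD, n = 3), a log2 fold change of -1.66 (SE 0.23, adjusted p = 0.0314 in edgeR with treatment alone). Leaving out any 1 of 4 libraries (siCtrl 1, siCtrl 2, siMED12 1 or siMED12 2) took the adjusted p above 0.05, up to 0.186, with log2 fold changes between -1.90 and -1.45 over the 6 fits. With any 1 of those 4 left out, 0 of all genes tested were called in either direction. The libraries held 16136699 to 17012788 counts on 25802 to 27404 genes. Of the luminal prostate markers, KRT8 ranged from 591 to 914 CPM, KRT18 from 404 to 545, FOXA1 from 212 to 469.7 and HOXB13 from 209.7 to 380.2 CPM over the 6 libraries. The basal, endothelial and leukocyte markers were at most 0.484 CPM in sum, KRT5 and KRT14 were at 0, and 2 of 5 fibroblast markers (COL1A1 and LUM) exceeded 1 CPM in every library, and the 5 summed to 25.8 to 38.0 CPM in siCtrl and 27.3 to 41.3 CPM in siMED12. The neuroendocrine markers CHGA, SYP and ENO2 summed to 260.2 to 302 CPM in siCtrl and 239.9 to 274 CPM in siMED12. The part of these marker levels in the results was not tested, and in bulk RNA fewer cells of a type and less RNA per cell cannot be told apart.

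Between siMED12 and siCtrl the androgen-responsive genes differed in both directions. FKBP5, ZBTB10, ABCC4, SORD, GPD1L and DBI were lower in siMED12 within each pair of same-numbered libraries, and SELENOP, ZMIZ1 and PTPN21 were higher. Of these genes only PTPN21 passed the test in the fit with treatment alone. Over the whole list, 28.8% were lower and 36.5% higher in all 3 pairs, beside 27.0% and 30.6% of all genes. The median of the list lay near that of all genes. In the fit with treatment alone the median log2 fold change was -0.012, with 27 of 52 genes below 0, beside 0.018 over all 17901 genes. Within the pairs of libraries that share a replicate number, the median was -0.046, 0.028 and 0.019, with 28, 25 and 22 of the 52 genes below 0. The size of the changes was taken from a second fit, described below, that compared the libraries within pairs. Its median absolute log2 fold change was 0.18 for the 52 genes and 0.20 for all genes. These sizes were not matched for level, whose median was 74.1 CPM for the 52 genes and 18.3 CPM for all genes.

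How many of these genes passed the test depended on how the replicate numbers were handled. In the fit with treatment alone (the study's methods name edgeR and no blocking term, although the legend of its androgen response heatmap mentions a correction for a batch that it does not name), PTPN21 rose and no member fell at an adjusted p below 0.05, that is 1 of 52 higher (1.92%) beside 0.151% of all genes higher, and 0 of 52 lower beside 0.413% of all genes lower. At an unadjusted p below 0.05 there were 14 members, 9 lower and 5 higher, and the share of all genes was not taken for this count. The DESeq2 Wald test called 2 of the 52 higher and 2 lower. In each direction this was a larger share than that of all genes called by the same test. It rests on 2 genes each way, and no test of the difference was made. These counts therefore do not show whether the members differed from other genes. Libraries with the same replicate number deviated from their group means together across all genes (correlations of 0.532, 0.373 and 0.643). Over the 52 members alone the correlations were 0.521, 0.194 and 0.841, and those of libraries with different numbers ranged from -0.732 to 0.404. A second fit therefore took the replicate number as a block and compared the libraries within each pair. In this paired fit 11 members rose (21.2%) and 16 fell (30.8%), beside 17.1% and 16.2% of all genes. The share that rose was near the background and the share that fell was above it. No test of that difference was made. The shares were also not matched for level, whose median was 74.1 CPM for the members and 18.3 CPM for all genes. Of the falls 14 of 16, and of the rises 8 of 11, were smaller than 0.5 on the log2 scale. The groups did not overlap in 5 members that were higher (9.62%, beside 11.2% of all genes) and 7 that were lower (13.5%, beside 10.9% of all genes). Below, a gene is said to fall or rise in the paired fit where its adjusted p was below 0.05 there, and log2 fold changes are from the paired fit unless the fit with treatment alone is named.

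**Figure D1:**
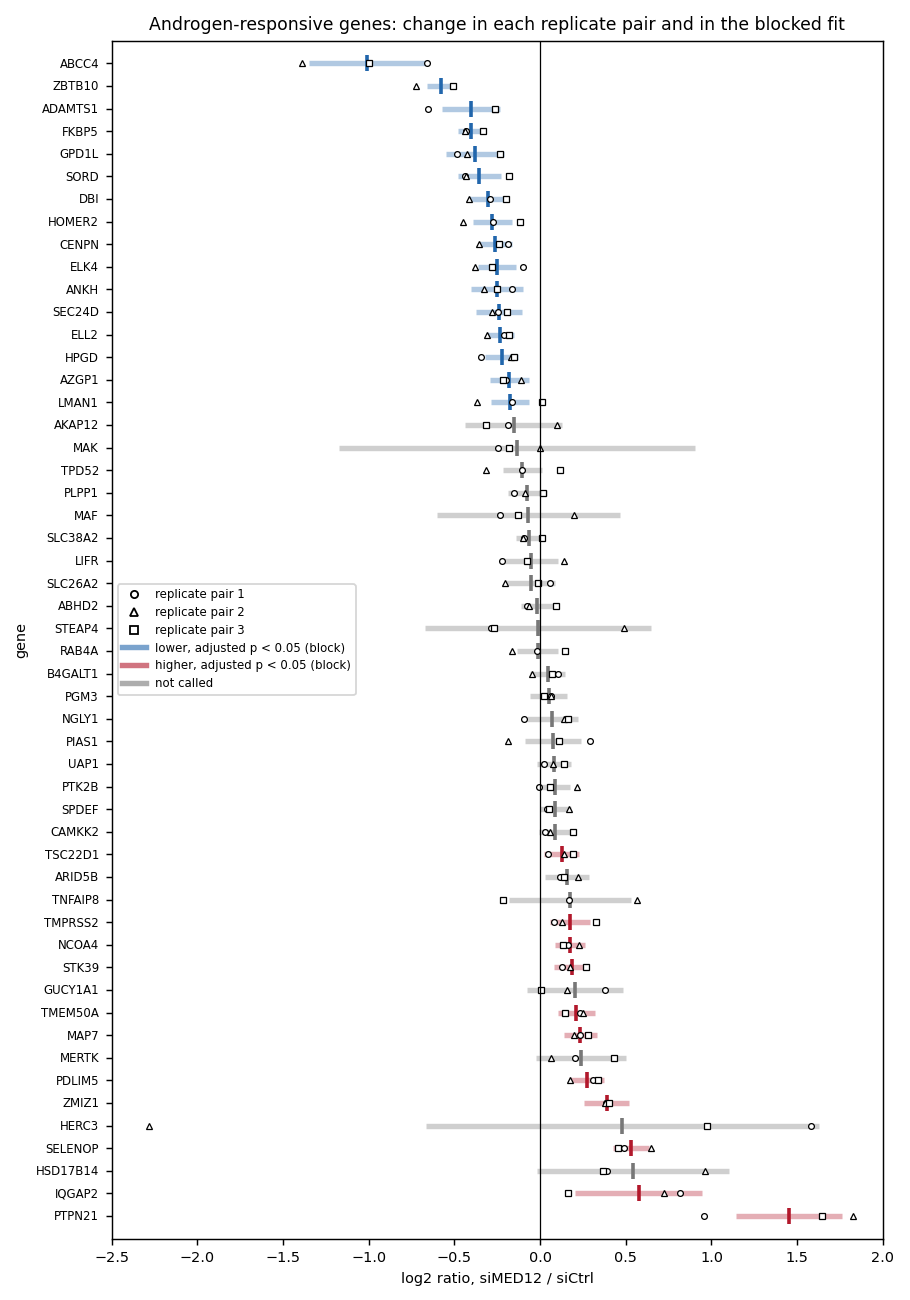
Log2 ratio of siMED12 to siCtrl for the 52 androgen-responsive genes with a test, ordered by the paired fit; open symbols are the 3 replicate pairs, vertical ticks the paired fit's log2 fold change, and colored bars its 95% interval (blue for genes that fell, red for genes that rose, grey for genes not called). ABCC4 and PTPN21 lie at the 2 ends with all 3 pairs on the same side of 0, most genes lie within 0.5 of 0, and HERC3 and MAK have the widest intervals.

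In siCtrl cells the genes covered a wide range of levels per length of exon. The highest were SPDEF at 85.9 ± 3.23, SLC38A2 at 79.4 ± 20.5, ZBTB10 at 74.7 ± 13.7 and FKBP5 at 60.8 ± 12.1 CPM per kb (SD, n = 3), and neighbors among these 4 differed by less than their summed SDs. ELL2 and NCOA4 followed at 50.002 ± 9.76 and 49.4 ± 3.79 CPM per kb. TMPRSS2 stood at 10.5 ± 2.27 CPM per kb, ABCC4 at 1.05 ± 0.199 and PTPN21 at 0.657 ± 0.170, and HERC3 was the lowest at 0.0735 ± 0.0277. The median over libraries and members was 74.1 CPM, beside 18.3 CPM for all genes tested, so that most members were measured with more reads than a typical gene. Of the 41 members with a mean of at least 10 CPM, 24 passed the paired test, down to a log2 fold change of 0.13 in size. Of the 11 members under 10 CPM, 3 passed (ABCC4, PTPN21 and IQGAP2), none with a change smaller than 0.58. Over all genes of any level, 17.1% rose and 16.2% fell in the paired fit. The same split by level was not made over all genes, so these counts do not show whether the members differed from genes of like level.

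The chaperones and co-regulators comprised 4 genes, of which 1 fell, 2 rose and 1 was not called. Over all genes, 16.2% fell and 17.1% rose. FKBP5 (ENSG00000096060.15, chromosome 6, 35573585 to 35728583, minus strand), the immunophilin that acts with HSP90 on steroid receptors, stood at 783, 628 and 527 CPM in siCtrl and at 580, 464 and 419 CPM in siMED12. It was lower in each pair, with changes of -26.0%, -26.1% and -20.5%, yet the groups overlapped, because siMED12 library 1 lay above siCtrl library 3. The mean was 646 ± 129 CPM in siCtrl and 488 ± 82.7 CPM in siMED12 (SD, n = 3). With treatment alone this was a log2 fold change of -0.41 (SE 0.17, adjusted p = 0.296), and in the paired fit -0.40 (SE 0.04, adjusted p = 3.64e-11). ZMIZ1, a PIAS-like transcriptional coactivator, stood at 46.3, 41.4 and 35.05 CPM in siCtrl and at 60.4, 53.8 and 46.3 CPM in siMED12. The lowest siMED12 library was only just above the highest siCtrl library, but the increase was nearly the same in the 3 pairs, at 30.4%, 30.0% and 32.2%. ZMIZ1 rose in the paired fit by a log2 fold change of 0.39 (SE 0.07, adjusted p = 9.81e-06; 0.245 with treatment alone). NCOA4, a transcriptional coactivator that is also the cargo receptor for ferritin, stood at 204, 207 and 180 CPM in siCtrl and at 228, 243 and 197 CPM in siMED12. It rose in the paired fit by a log2 fold change of 0.17 (adjusted p = 0.00115; 0.487 with treatment alone), with overlapping groups. PIAS1, a SUMO ligase, was higher in pairs 1 and 3 and lower in pair 2, with a log2 fold change of 0.07 (95% interval -0.09 to 0.24).

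**Figure D2:**
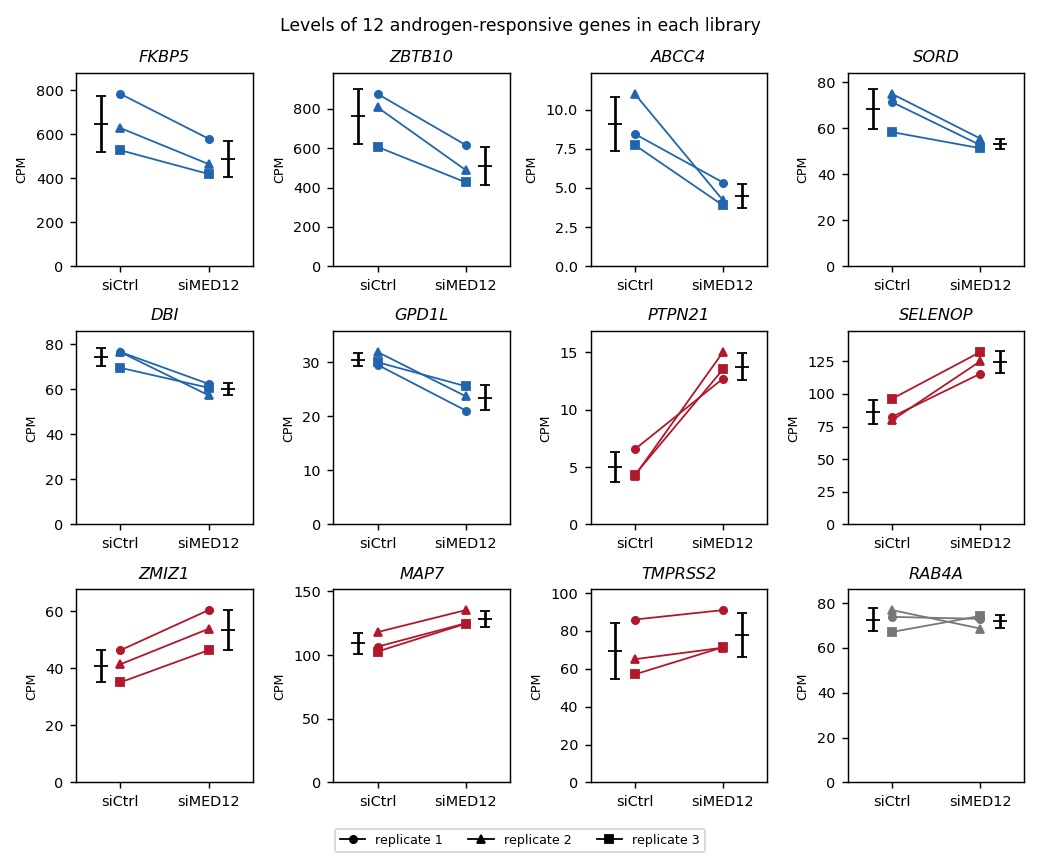
CPM of 12 of the genes in each library, with lines joining the siCtrl and siMED12 libraries of the same replicate number (circles, triangles and squares for replicates 1, 2 and 3) and black bars for the mean and SD of each group (n = 3); blue genes fell, red genes rose and the grey gene was not called in the paired fit. For FKBP5 and ZBTB10 the 3 lines run down in parallel from different starting levels, whereas for PTPN21 and SELENOP all siMED12 libraries lie above all siCtrl libraries.

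Of the 4 proteases and secreted proteins, 2 fell and 2 rose in the paired fit, beside 16.2% and 17.1% of all genes. TMPRSS2 (ENSG00000184012.14, chromosome 21, 41464300 to 41531116, minus strand), the androgen-driven transmembrane serine protease whose promoter is often fused to ERG in prostate cancer, stood at 86.0, 65.1 and 57.1 CPM in siCtrl and at 91.0, 71.2 and 71.4 CPM in siMED12. It was higher in each pair, by 5.78%, 9.32% and 25.2%, while the libraries of each group spread over a wider range than these differences. The log2 fold change was 0.17 (SE 0.17, adjusted p = 0.718) with treatment alone and 0.17 (SE 0.06, adjusted p = 0.0176) in the paired fit, and without pair 3 it was 0.10 (adjusted p = 0.289). Of its 6589 exonic bases, 562 are shared with MX1 on the opposite strand. TMPRSS2 and FKBP5, both used as readouts of androgen signaling, were called in opposite directions in the paired fit. By DESeq2's Wald test with the same block FKBP5 was still called, but TMPRSS2 was not (adjusted p = 0.116).

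SELENOP (ENSG00000250722.6, chromosome 5, 42799880 to 42887392, minus strand), the secreted selenium carrier, stood at 82.5, 79.8 and 96.3 CPM in siCtrl and at 116, 125 and 132 CPM in siMED12. All siMED12 libraries were above all siCtrl libraries, and the pairs were higher by 40.1%, 56.7% and 37.3%. The mean was 86.2 ± 8.86 CPM in siCtrl and 124 ± 8.36 CPM in siMED12, with a log2 fold change of 0.53 (SE 0.11, adjusted p = 0.0704) with treatment alone, the lowest adjusted p after that of PTPN21, and 0.53 (SE 0.05, adjusted p = 9.47e-11) in the paired fit. Of its 5502 exonic bases, 2056 are shared with opposite-strand genes, mainly CCDC152, which was counted at 0.498 CPM on average. ADAMTS1, a secreted metalloprotease that cleaves matrix proteoglycans, stood at 43.1, 34.6 and 26.7 CPM in siCtrl and at 27.3, 28.9 and 22.3 CPM in siMED12. It was lower in each pair and fell in the paired fit by 0.40 on the log2 scale (adjusted p = 2.02e-04; 0.348 with treatment alone), although the groups overlapped. AZGP1, a secreted zinc-binding glycoprotein of prostate fluid, stood at 64.1, 61.9 and 119 CPM in siCtrl and at 55.9, 57.2 and 103 CPM in siMED12. Library 3 of each group was far above the others, so the groups overlapped, and the fall within pairs was by 0.18 on the log2 scale (adjusted p = 0.0105; 0.124 without pair 3).

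Of the 4 transporters, 2 fell and none rose, beside 16.2% and 17.1% of all genes. ABCC4 (chromosome 13, 95019835 to 95301475, minus strand), an efflux pump for organic anions such as cyclic nucleotides and prostaglandins, had the lowest log2 fold change of all members. It stood at 8.45, 11.0 and 7.74 CPM in siCtrl and at 5.35, 4.21 and 3.88 CPM in siMED12, so the groups did not overlap. The changes in the pairs were -36.7%, -61.8% and -49.9%. With treatment alone the log2 fold change was -1.02 (SE 0.23, adjusted p = 0.0931) and in the paired fit -1.01 (SE 0.17, adjusted p = 6.83e-06). ABCC4 was counted by only 62 to 174 reads per library, and it was named after its values were seen. ANKH, an exporter of pyrophosphate and ATP, fell in the paired fit by 0.25 on the log2 scale (adjusted p = 0.00808), from 37.8 ± 3.28 to 31.8 ± 1.07 CPM with groups that did not overlap. The sulfate transporter SLC26A2 had a log2 fold change of -0.05 (95% interval -0.20 to 0.09). The amino acid transporter SLC38A2 ranged from 375 to 640 CPM within siCtrl and from 377 to 599 CPM within siMED12, with a log2 fold change of -0.06 (95% interval -0.14 to 0.01).

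Of 8 metabolic genes tested, all enzymes except DBI, 4 fell and 0 rose in the paired fit, beside 16.2% and 17.1% of all genes. No test of the group was made. PGM3 and UAP1, enzymes of UDP-GlcNAc synthesis, were placed in another role and were not called. SORD, sorbitol dehydrogenase, which turns sorbitol into fructose, stood at 71.5, 75.02 and 58.4 CPM in siCtrl and at 52.7, 55.6 and 51.4 CPM in siMED12. GPD1L, an enzyme of the glycerol 3-phosphate dehydrogenase family, stood at 29.6, 31.9 and 30.1 CPM in siCtrl and at 21.1, 23.7 and 25.6 CPM in siMED12. DBI, the acyl-CoA binding protein, stood at 76.5, 76.5 and 69.5 CPM in siCtrl and at 62.4, 57.3 and 60.7 CPM in siMED12. In all 3 genes every siMED12 library was below every siCtrl library. The log2 fold change of SORD was -0.35 (SE 0.06, adjusted p = 1.74e-05; 0.192 with treatment alone). That of GPD1L was -0.38 (SE 0.08, adjusted p = 3.60e-04; 0.193 with treatment alone). That of DBI was -0.30 (SE 0.06, adjusted p = 8.09e-05; 0.173 with treatment alone). SORD has a near-identical pseudogene, SORD2P, which was counted at 7.76 CPM on average, so its reads may be split. HPGD, which inactivates prostaglandins, fell in the paired fit by 0.22 on the log2 scale (adjusted p = 2.99e-04), from 147 ± 12.5 to 126 ± 7.53 CPM, with overlapping groups. ABHD2, a lipase, stood at 147, 167 and 126 CPM in siCtrl and at 139, 159.5 and 134 CPM in siMED12. Its log2 fold change was -0.02 (95% interval -0.11 to 0.08), and the level followed the replicate number in both groups. PLPP1, a lipid phosphatase, had a log2 fold change of -0.08 (95% interval -0.19 to 0.04). STEAP4, a metalloreductase, was at 1.68 CPM on average and could not be placed (log2 fold change -0.01, 95% interval -0.67 to 0.65). HSD17B14, a steroid dehydrogenase, was higher in each pair, by 30.8%, 94.6% and 29.0%, but at 19 to 54 reads per library it did not pass the test (log2 fold change 0.54, 95% interval -0.02 to 1.10, adjusted p = 0.136).

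Among 12 kinases, phosphatases and signaling proteins, 1 fell, 3 rose and 8 were not called in the paired fit. Over all genes, 16.2% fell and 17.1% rose. PTPN21 (ENSG00000070778.13, chromosome 14, 88465778 to 88555007, minus strand), a tyrosine phosphatase with a FERM domain, stood at 6.54, 4.24 and 4.33 CPM in siCtrl and at 12.7, 15.03 and 13.5 CPM in siMED12. Every siMED12 library was far above every siCtrl library. The mean rose from 5.04 ± 1.31 to 13.8 ± 1.17 CPM (SD, n = 3), by 94.2%, 255% and 212% in the pairs. PTPN21 was the member that passed the test with treatment alone (log2 fold change 1.45, SE 0.22, adjusted p = 0.0417), and in the paired fit its adjusted p was 6.28e-10. Without any 1 of the 6 libraries the first call was lost, with adjusted p between 0.0661 and 0.232 and log2 fold changes between 1.34 and 1.66. Over all genes tested, at most 8 were called higher in any of those 6 fits. Leaving out a pair from the paired fit kept the call, with log2 fold changes between 1.25 and 1.72.

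HOMER2, a postsynaptic-type scaffold protein, stood at 96.8, 109 and 94.9 CPM in siCtrl and at 80.1, 79.99 and 87.6 CPM in siMED12. The groups did not overlap, and it fell in the paired fit by 0.28 on the log2 scale (adjusted p = 1.18e-04; 0.210 with treatment alone). STK39, the kinase SPAK that regulates chloride cotransporters, stood at 121, 115 and 61.6 CPM in siCtrl and at 132, 130.2 and 74.0 CPM in siMED12. Library 3 was far below the others in both groups, so siMED12 library 3 lay below siCtrl libraries 1 and 2, while each pair was higher, by 9.14%, 13.04% and 20.3%. STK39 rose in the paired fit by a log2 fold change of 0.18 (adjusted p = 0.00381; 0.839 with treatment alone). IQGAP2, a scaffold of small GTPases, rose in the paired fit by 0.58 (adjusted p = 0.0129) from 4.14 ± 0.863 to 6.21 ± 1.85 CPM. This call was lost without pair 1 (0.45, adjusted p = 0.147) or without pair 2 (0.46, adjusted p = 0.138). Of the 8 not called, CAMKK2, a calcium-dependent kinase upstream of AMPK, and PTK2B, a focal adhesion kinase, had log2 fold changes of 0.09 (95% interval -0.01 to 0.18) and 0.09 (95% interval 0.00031 to 0.17), with adjusted p of 0.148 and 0.119. The receptor kinase MERTK was higher in each pair, with a log2 fold change of 0.24 (95% interval -0.03 to 0.50). The cytokine receptor LIFR (log2 fold change -0.06), the anchoring protein AKAP12 (-0.15), the guanylate cyclase subunit GUCY1A1 (0.20) and the apoptosis regulator TNFAIP8 (0.17) had intervals that held 0. MAK, a germ-cell kinase also found in prostate cells, was counted by 6 to 13 reads per library, with an interval of -1.17 to 0.91.

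Of the 7 transcription and elongation factors, 3 fell and 1 rose in the paired fit, beside 16.2% and 17.1% of all genes. ZBTB10 (chromosome 8, plus strand), a zinc-finger repressor, stood at 876, 808 and 607 CPM in siCtrl and at 616, 488 and 426.5 CPM in siMED12. It was lower in each pair, with changes of -29.7%, -39.5% and -29.7%, but siMED12 library 1 lay just above siCtrl library 3. The mean was 763 ± 140 CPM in siCtrl and 510.3 ± 96.7 CPM in siMED12. The log2 fold change was -0.58 (SE 0.17, adjusted p = 0.162) with treatment alone and -0.58 (SE 0.04, adjusted p = 8.21e-15) in the paired fit, the lowest paired p of the members. ELL2, an elongation factor of RNA polymerase II, stood at 406, 384 and 276 CPM in siCtrl and at 350.2, 309 and 244 CPM in siMED12, and fell in the paired fit by 0.24 on the log2 scale (adjusted p = 1.01e-05). ELK4, an ETS factor, fell by 0.25 on the log2 scale (adjusted p = 2.82e-04), with overlapping groups. TSC22D1, a leucine zipper factor, rose by 0.13 in the paired fit (adjusted p = 0.0477), a call that was lost without any 1 of the 3 pairs, with values between 0.09 and 0.15 and adjusted p between 0.0804 and 0.276. ARID5B, which binds AT-rich DNA, stood at 79.5, 38.8 and 31.0 CPM in siCtrl and at 86.3, 45.3 and 34.0 CPM in siMED12. Its siCtrl libraries differed 2.57-fold among themselves, and its log2 fold change of 0.16 did not pass the test (adjusted p = 0.0582). SPDEF, the ETS factor of luminal and secretory cells, had a log2 fold change of 0.09 (95% interval -0.0024 to 0.18, adjusted p = 0.132). MAF was at 2.39 CPM on average, with a log2 fold change of -0.07 (95% interval -0.60 to 0.46).

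The 10 genes of glycosylation, secretory traffic and protein turnover mostly did not pass the test, with 2 lower, 1 higher and 7 not called. Over all genes, 16.2% were called lower and 17.1% higher. SEC24D, a cargo adaptor of COPII vesicles, fell in the paired fit by 0.24 on the log2 scale (adjusted p = 0.00377), from 50.8 ± 3.24 to 42.96 ± 1.47 CPM with groups that did not overlap. LMAN1, the ER-to-Golgi cargo lectin, fell by 0.18 (adjusted p = 0.0106), with 0.634% more in siMED12 in pair 3, and its call was lost without pair 2 (-0.11, adjusted p = 0.181). TMEM50A, a membrane protein, stood at 76.3, 79.8 and 78.5 CPM in siCtrl and at 89.5, 95.1 and 86.8 CPM in siMED12. The groups did not overlap, and it rose in the paired fit by 0.21 (adjusted p = 0.00192; 0.293 with treatment alone).

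Several genes of this role were as near to 0 as the data could place them. RAB4A, a small GTPase of endosome recycling, stood at 73.8, 76.9 and 67.1 CPM in siCtrl and at 72.9, 68.6 and 74.2 CPM in siMED12. The pairs went both ways, with a log2 fold change of -0.01 (95% interval -0.13 to 0.11). B4GALT1, the galactosyltransferase of the Golgi, stood at 101.02, 102.2 and 89.4 CPM in siCtrl and at 109, 99.1 and 93.9 CPM in siMED12, a log2 fold change of 0.04 (95% interval -0.06 to 0.15). PGM3, an enzyme of UDP-GlcNAc synthesis, stood at 81.2, 83.8 and 92.2 CPM in siCtrl and at 84.9, 87.4 and 93.7 CPM in siMED12, a log2 fold change of 0.05 (95% interval -0.06 to 0.16). UAP1, the next enzyme of that route, had a log2 fold change of 0.08 (95% interval -0.02 to 0.18), and the deglycosylase NGLY1 one of 0.07 (95% interval -0.08 to 0.22). TPD52, a vesicle protein, had a log2 fold change of -0.10 (95% interval -0.22 to 0.01), and passed the test only without pair 3 (-0.21, adjusted p = 0.00309). The ubiquitin ligase HERC3 was counted by 2 to 21 reads per library, and 4844 of its 6969 exonic bases are shared with a second annotated HERC3 gene on the same strand. Over all roles, 16 of the 25 members that were not called had a 95% interval inside -0.3 to 0.3, while 9 reached beyond it, and 8 of the 25 were under 10 CPM.

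Of the 3 genes of cytoskeleton and kinetochore, 1 fell and 2 rose in the paired fit, beside 16.2% and 17.1% of all genes. CENPN, which loads centromeric chromatin at the kinetochore, stood at 169.6, 179.5 and 133 CPM in siCtrl and at 149, 140.4 and 113 CPM in siMED12, and fell by 0.26 on the log2 scale (adjusted p = 2.38e-05; 0.446 with treatment alone). PDLIM5, an actin-linked scaffold, stood at 106, 112 and 81.7 CPM in siCtrl and at 131, 127 and 103 CPM in siMED12, and rose by 0.27 (adjusted p = 3.80e-05; 0.429 with treatment alone). MAP7, a microtubule protein that recruits kinesin, stood at 107, 118 and 103 CPM in siCtrl and at 125, 135 and 125 CPM in siMED12, and rose by 0.23 (adjusted p = 1.62e-04; 0.273 with treatment alone). Only MAP7 of these 3 had groups that did not overlap.

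The direction of the difference was shared by all 3 pairs in 15 members that were lower (28.8%, beside 27.0% of all genes) and in 19 that were higher (36.5%, beside 30.6% of all genes).

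The sum of squares of log2 CPM was split, gene by gene, between the replicate number and the treatment. The replicate number has 2 degrees of freedom and the treatment 1, so the shares of a gene are not set against each other here. The replicate number took a median of 52.7% and the treatment 27.8%, beside 56.8% and 20.5% over all genes. The treatment took 92.2% for PTPN21, 87.4% for SELENOP and 87.0% for DBI, whereas the replicate number took 95.5% for AZGP1, 94.6% for STK39 and 79.6% for TMPRSS2. For FKBP5 the shares were 52.9% for the replicate number and 46.4% for the treatment. Library 3 was the lowest of its group in both groups for 27 members (51.9%), beside 29.4% of all genes, with FKBP5, ZBTB10, ELL2, SLC38A2, STK39 and ARID5B among them. Library 1 was the highest in both groups for 12 members (23.1%, beside 18.1% of all genes), and library 3 was the highest in both for 8 (15.4%, beside 27.1% of all genes). The part of the replicate number in the members' levels was not tested, and the labels do not say what the numbers stand for.

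**Figure D3:**
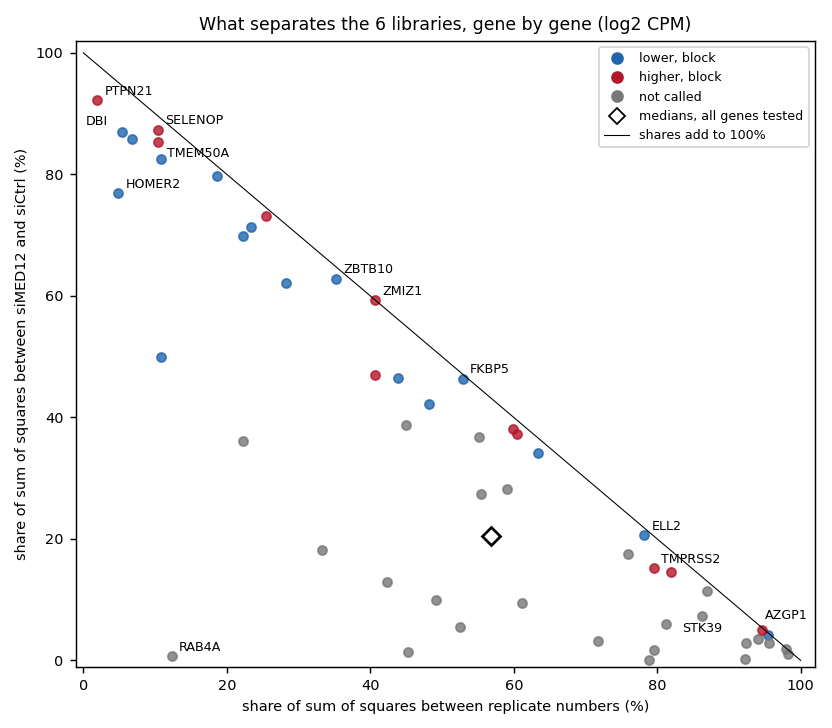
Share of each gene's sum of squares of log2 CPM that lies between replicate numbers (x axis, %) and between siMED12 and siCtrl (y axis, %) for the 52 genes, colored by the paired fit, with the open diamond at the medians of all genes tested. Genes such as PTPN21, DBI and SELENOP sit at the upper left, where the treatment took at least 87.0%, and STK39 and AZGP1 sit at the lower right, where the replicate number took at least 94.6% of the sum of squares and the paired fit still called them.

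The remaining genes of the androgen response, a list of 47 genes that includes the kallikreins KLK2 and KLK3, were measured beside them. With treatment alone 1 of 47 fell (2.13%, beside 0.413% of all genes), the fatty acid desaturase FADS1 (log2 fold change -0.51, adjusted p = 0.0442), and none rose. In the paired fit 21 fell (44.7%) and 4 rose (8.51%), beside 16.2% and 17.1% of all genes, and the median log2 fold change was -0.11, with 33 of 47 genes below 0. The median of the 52 genes was -0.013, and no test of the difference between the lists was made. These shares were not matched for level either, and the median level of the 47 genes was 142 CPM. KLK2 stood at 76.3, 61.9 and 93.9 CPM in siCtrl and at 26.3, 18.8 and 38.3 CPM in siMED12. KLK3, which encodes PSA, stood at 38.3, 28.3 and 44.3 CPM in siCtrl and at 17.05, 10.4 and 17.8 CPM in siMED12. PMEPA1, a negative regulator of TGF-beta signaling, stood at 434, 333 and 321 CPM in siCtrl and at 224, 144 and 179.6 CPM in siMED12. In all 3 genes the groups did not overlap, and the paired log2 fold changes were -1.50 for KLK2 (adjusted p = 2.36e-19), -1.30 for KLK3 (adjusted p = 5.12e-15) and -0.998 for PMEPA1 (adjusted p = 2.44e-19), with adjusted p of 0.0537, 0.0617 and 0.0597 with treatment alone. ABCC4 (-1.01) was the member whose fall was of that size, and FKBP5 (-0.40) and ZBTB10 (-0.58) fell less. The largest increases of this list were the phosphatase CDC14B (log2 fold change 0.64, adjusted p = 1.03e-04), the integrin subunit ITGAV (0.43, adjusted p = 2.59e-09) and APPBP2 (0.29, adjusted p = 8.56e-04), in the paired fit.

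**Figure D4:**
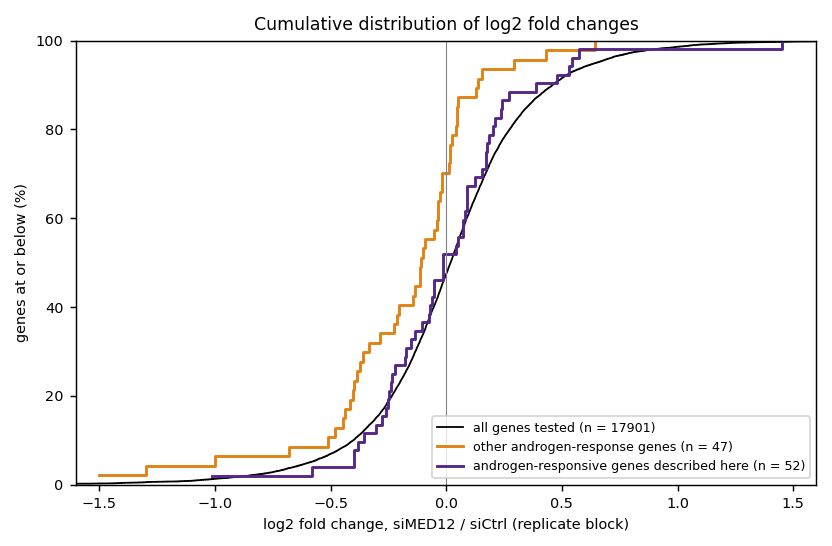
Cumulative share of genes (y axis, %) at or below each log2 fold change of the paired fit (x axis) for all 17901 genes tested (black), the 52 androgen-responsive genes described here (purple) and the 47 other androgen-response genes (orange). The purple curve runs near the black one with medians of -0.013 and 0.018, and the orange curve lies to the left with a median of -0.11.

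The sequence just upstream of the start sites was compared for the members that RefSeq's promoter table holds (GRCh38.p14), which were 42 of 53 genes with 73 start sites. Each window took the 250 bases before the start, without bases annotated as exon when printed. The windows of 4 genes are shown: FKBP5 as a classical androgen-responsive gene that fell, SELENOP and PTPN21 as the 2 clear increases, and STK39 as a gene with a half-site of the androgen response element. All lie on the minus strand, at chr6:35688943-35689165 for FKBP5, chr5:42811894-42812142 for SELENOP, chr14:88555008-88555257 for PTPN21 and chr2:168247596-168247845 for STK39. Capitals mark an E-box (CACGTG) in FKBP5, a forkhead match on the opposite strand (GTAAACA) and a TATA box (TATAAA) in SELENOP and the half-site (AGAACA) in STK39, and PTPN21 held no motif searched.
FKBP5: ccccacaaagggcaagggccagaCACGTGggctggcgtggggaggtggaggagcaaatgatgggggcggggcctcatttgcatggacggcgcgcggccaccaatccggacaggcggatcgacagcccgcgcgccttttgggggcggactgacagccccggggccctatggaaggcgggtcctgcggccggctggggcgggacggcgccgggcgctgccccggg
SELENOP: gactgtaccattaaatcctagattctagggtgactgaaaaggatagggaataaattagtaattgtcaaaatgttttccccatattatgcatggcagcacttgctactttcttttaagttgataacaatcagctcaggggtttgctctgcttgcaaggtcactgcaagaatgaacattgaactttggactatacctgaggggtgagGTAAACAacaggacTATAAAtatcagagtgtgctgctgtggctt
PTPN21: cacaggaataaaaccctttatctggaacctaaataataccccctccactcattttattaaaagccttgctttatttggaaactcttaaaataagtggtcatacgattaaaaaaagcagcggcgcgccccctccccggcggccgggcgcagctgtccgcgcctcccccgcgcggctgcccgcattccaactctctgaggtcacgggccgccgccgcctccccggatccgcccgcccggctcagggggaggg
STK39: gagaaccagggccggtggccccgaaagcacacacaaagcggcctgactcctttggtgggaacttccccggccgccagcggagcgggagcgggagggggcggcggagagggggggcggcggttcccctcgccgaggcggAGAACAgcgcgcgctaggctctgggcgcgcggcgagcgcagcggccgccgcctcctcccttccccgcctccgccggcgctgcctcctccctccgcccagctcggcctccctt
The full androgen response element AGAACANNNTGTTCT, in which the half-site AGAACA stands beside its reverse complement, was in 0 of 73 windows, beside 0.00285% of the 35116 windows of all genes, both strands searched. The half-site alone was in 4 windows (5.48%, beside 12.4% of all windows), those of IQGAP2, LIFR, STK39 and TSC22D1. The forkhead motif TGTTTAC was in 2 windows (2.74%, beside 2.98%), those of SELENOP and ARID5B. The E-box CACGTG was in 9 windows (12.3%, beside 6.34%) of RAB4A, DBI, SLC26A2, FKBP5, AKAP12 and TSC22D1, of which the 2 DBI windows overlap and hold the same site, and in the FKBP5 window it begins at position -227 from the start. DBI and FKBP5 fell, TSC22D1 rose and RAB4A, SLC26A2 and AKAP12 were not called, so genes with this motif did not share a direction. TATAAA was in 8 windows (11.0%, beside 10.7%). In SELENOP it begins at position -31 and the forkhead match at position -45. These matches describe letters in short windows and say nothing of binding.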

How the data were processed

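The 6 RNA-seq libraries were made from poly(A) RNA of 22Rv1 cells with a strand-specific protocol at a service provider, and the labels gave each one its group and number. The authors aligned and counted reads with Rsubread against GRCh38.p13 with a Gencode annotation whose release the study's methods name; the version of Rsubread, the handling of multimapping reads and the strand setting are not given in the sources used here, so reads of near-identical copies and overlapping genes are uncertain. Exonic bases shared with another gene were found in 26 of the 52 members, 23 of them on the opposite strand. The deposited counts are raw reads per gene (62703 genes). The log2 CPM values deposited by the authors cover 17901 genes and differed by at most 4.96e-09 from those recomputed with edgeR (filterByExpr, TMM, prior count 2), so they hold no batch correction.

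Differential expression was tested on the counts of all 17901 genes with edgeR 4.0.16 in R 4.3.3 (filterByExpr, TMM, quasi-likelihood F-test, two-sided, Benjamini-Hochberg threshold 0.05, treatment only). Each SE is the log2 fold change divided by the root of F. Same-numbered libraries deviated together (correlations of 0.532, 0.373 and 0.643, against -0.460 to -0.0233 for different numbers), so the numbers were taken to pair the libraries, and a second fit, blocked on that number, stands beside the first. The common dispersion was 0.0368 without and 0.00228 with it. Replicates of a group were not duplicates (chi-square per degree of freedom 10.3 to 40.7). CPM are scaled by TMM, except marker sums, which use total counts. The libraries held 16136699 to 17012788 counts.

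The members, the 47 other androgen-response genes, roles and markers were chosen with earlier results of these data known. Members and other genes together follow the hallmark androgen response set, which the study also tested, as far as it is generally known; they were not checked against its published file. Full values are given for FKBP5, TMPRSS2, members with an adjusted p below 0.05 without the block, the 8 largest decreases and 8 largest increases with it among members of at least 10 CPM, and the 4 nearest to 0; of the other list, 3 in each direction. Other members whose values per library are given (ABCC4, AZGP1, ELL2, ARID5B) were chosen after their values were seen. Coordinates and exons came from Gencode release 44 (GRCh38), promoters from RefSeq. Results were recomputed with the size factors or the Wald test of DESeq2 1.42.0, with no scaling beyond library size, with limma 3.58.1 on the log2 CPM, with other filters, and without single libraries. The procedure was tested on simulated data. Results for some marker genes are not reported here.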

Additional observations from a re-analysis of the deposited data

How the results depend on the processing

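With treatment alone, the members called higher and lower numbered 1 and 0. They numbered 2 and 2 by DESeq2's Wald test and also 2 and 2 where the filter asked for 1 count alone. Over all genes, both settings also called more genes in each direction than the fit with treatment alone. The members' shares were above those of all genes under both settings, on 2 genes each way, and the difference was not tested. Without 1 library the members called numbered 0 to 0 in each direction. Over all genes, 0 were called in either direction without siCtrl 1, siCtrl 2, siMED12 1 or siMED12 2. Without siCtrl 3 the calls were 5 higher and 37 lower of 18336 genes. Without siMED12 3 they were 8 higher and 29 lower of 18281 genes. With the replicate block they numbered 11 and 16, with the block and DESeq2 size factors 10 and 16, with the block and library size only 16 and 16, by DESeq2's Wald test with the block 8 and 13, and with the block without 1 replicate number 9 to 9 and 15 to 16. Of the 27 calls with the block, 26, 27 and 21 were also made in the same direction under those 3 alternatives, and 25, 24 and 24 without replicate number 1, 2 or 3. The calls that the Wald test lost were those of TMPRSS2, ANKH, AZGP1, IQGAP2, LMAN1 and TSC22D1. None of the 27 changed sign in these 6 fits. The block changed no call of MED12 or PTPN21.

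The median log2 fold change of the members moved from -0.012 to 0.029 with the block and library size only, and lay between -0.082 and 0.035 without 1 library. Library size only moved the median of all genes to 0.060.

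Of the other androgen-response genes, those called higher and lower numbered 0 and 1 with treatment alone, 1 and 7 by DESeq2's Wald test, 0 and 2 with limma, and 0 and 6 with no filter beyond 1 count. Without 1 library those lower numbered 0 to 1. With the block they numbered 4 and 21, with the block and DESeq2 size factors 4 and 22, with the block and library size only 5 and 20, by DESeq2's Wald test with the block 3 and 21, and with the block without 1 replicate number 3 to 4 and 20 to 22. Their median was -0.068 with library size only, -0.067 with the block as well, and -0.18 to -0.029 without 1 library. MED12 lay between -1.90 and -1.45 without 1 library. The calls over all genes without 1 library are those given with the members above. With limma the calls over all genes were 27 higher and 78 lower of 17901 genes. By DESeq2's Wald test without the block, and with no filter beyond 1 count, the share of this list called lower was above that of all genes. The shares called higher rested on 1 and 0 genes. None of these differences was tested.

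With library size only, the log2 fold changes of ABHD2 (0.022, and 0.025 with the block), RAB4A (0.028 and 0.029) and STEAP4 (0.027 and 0.029) turned positive.

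Leaving out 1 library without the block put the log2 fold change of some members on both sides of 0, among them AZGP1, STK39 and TSC22D1, which were called with the block. Their ranges were ABHD2 (-0.12 to 0.085), AKAP12 (-0.42 to 0.18), ARID5B (-0.34 to 0.64), AZGP1 (-0.53 to 0.19), B4GALT1 (-0.032 to 0.092), GUCY1A1 (-0.13 to 0.51), HERC3 (-0.023 to 1.07), LIFR (-0.15 to 0.040), MAF (-0.25 to 0.0031), MAK (-0.36 to 0.11), PGM3 (-0.011 to 0.10), PIAS1 (-0.069 to 0.15), PLPP1 (-0.17 to 0.016), RAB4A (-0.069 to 0.030), SLC26A2 (-0.12 to 0.012), SLC38A2 (-0.26 to 0.092), STEAP4 (-0.20 to 0.27), STK39 (-0.076 to 0.40) and TSC22D1 (-0.011 to 0.24). With the block, the sign differed from the first fit without replicate number 1 for B4GALT1 (-0.0058), HERC3 (-0.056), LIFR (0.016), MAF (0.0025), PIAS1 (-0.060) and STEAP4 (0.13), without replicate number 2 for PTK2B (-0.0032), RAB4A (0.036) and TNFAIP8 (-0.039), without replicate number 3 for STEAP4 (0.080).

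HERC3 and MAK gave no value with a mean of at least 1 CPM or an adjusted p from DESeq2, and HERC3 none with the block without replicate number 3. The cause of these changes was not tested. The design has 3 libraries a group, and members under 10 CPM rest on few reads.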
